A study of Mus musculus with 2 samples.

Results

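Ccr2 monocyte-lineage cells were cells of the sorted bone preparation that carried transcripts of the pan-leukocyte gene Ptprc together with Ccr2 and Ms4a6c. A barcode was a member when it held 200 to 6000 genes and at most 10% of its unique molecular identifiers (UMIs, the tags that count captured mRNA molecules) in mitochondrial genes. It also needed at least 1 UMI each of Ptprc, Ccr2 and Ms4a6c. In addition it had to hold fewer than 300 UMIs per 10,000 of S100a8 plus S100a9, the calprotectin genes of neutrophils, and fewer than 20 per 10,000 of Mpo, Elane and Prtn3 together, the primary granule genes of early granulocytes. These terms gave 111 members among the 1766 kept cells, 12 of 549 in the vehicle library and 99 of 1217 in the teriparatide library. The members were thus chosen by the measured UMIs of these genes, whose values are given as a description.

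The mice were Gli1-CreERT2; Ai9 animals of mixed background, 1 month old, in which tamoxifen switches on tdTomato in cells that use the Gli1 promoter and in their progeny. All of them received tamoxifen once a day for 3 days, and then 3 daily injections of either vehicle or teriparatide, the amino-terminal fragment of parathyroid hormone, at 400 ng per g of body weight. Cells of the femoral cancellous bone were sorted as tdTomato+CD31-CD45-Ter119-, and each condition gave 1 library on the 10x Genomics platform, so that no comparison between conditions has a replicate. The vehicle library held 1286 barcodes and 10567335 UMIs, and the teriparatide library 2142 barcodes and 26270041 UMIs. The labels name the sorted cells bone mesenchymal progenitors and the gate excluded CD45, the protein that Ptprc encodes. The study left out cells with Ptprc before its clustering, as residual hematopoietic contamination. Members held Ptprc transcripts because the rule required them, 3 to 22 UMIs per cell in the vehicle library and 1 to 23 in the teriparatide library. Gli1 had no UMI in any member. The reporter transcript was not analysed here, so whether the members carried tdTomato was not tested. The libraries shared 2 barcodes, none of them between members.

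Monocytes arise in the bone marrow from myeloid progenitors and leave it for the blood under the control of Ccr2, the receptor for the monocyte chemoattractant chemokines. Classical mouse monocytes are known by high Ly6c and Ccr2, and nonclassical monocytes by low Ly6c and high Cx3cr1. In bone they are one source of macrophages and of osteoclast precursors, which depend on the receptor encoded by Csf1r.

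Ms4a6c, one of the genes that chose the cells, lies in the Ms4a cluster of membrane protein genes on chromosome 19, of which 12 genes were listed between positions 11067471 and 11640851 (GENCODE vM21 on GRCm38). Neighbours that the rule did not use were abundant in the same cells. Shown here are the 250 bases before the start of 4 of these genes, and of the classical monocyte gene Ly6c2, from RefSeq on GRCm38.p6. Capitals mark matches, on either strand, to AGGAAGT (the ETS core), to GAGGAAGT (the PU.1 core, which contains the ETS core) or to TGANTCA (an AP-1 motif).
Ms4a6c (chr19:11469118-11469367, plus strand): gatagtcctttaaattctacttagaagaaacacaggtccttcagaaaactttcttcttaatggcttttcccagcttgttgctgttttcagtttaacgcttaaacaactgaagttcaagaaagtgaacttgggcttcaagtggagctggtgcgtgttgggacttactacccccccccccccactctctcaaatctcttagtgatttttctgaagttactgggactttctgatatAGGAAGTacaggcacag
Ms4a6b (chr19:11518309-11518558, plus strand): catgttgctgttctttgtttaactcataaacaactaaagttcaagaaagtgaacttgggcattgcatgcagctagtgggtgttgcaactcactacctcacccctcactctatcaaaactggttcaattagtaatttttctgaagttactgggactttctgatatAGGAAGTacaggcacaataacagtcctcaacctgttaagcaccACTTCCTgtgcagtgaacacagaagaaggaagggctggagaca
Ms4a4c (chr19:11407411-11407660, plus strand): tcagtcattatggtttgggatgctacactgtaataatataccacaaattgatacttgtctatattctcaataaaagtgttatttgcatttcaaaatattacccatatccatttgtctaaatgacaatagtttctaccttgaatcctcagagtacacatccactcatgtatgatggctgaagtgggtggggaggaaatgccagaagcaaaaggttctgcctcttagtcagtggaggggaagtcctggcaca
Ms4a8a (chr19:11081104-11081353, minus strand): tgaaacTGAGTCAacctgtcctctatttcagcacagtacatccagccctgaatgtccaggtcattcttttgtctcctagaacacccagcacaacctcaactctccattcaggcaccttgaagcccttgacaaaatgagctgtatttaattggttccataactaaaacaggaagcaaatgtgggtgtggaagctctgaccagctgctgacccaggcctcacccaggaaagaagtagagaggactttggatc
Ly6c2 (chr15:75111972-75112221, minus strand): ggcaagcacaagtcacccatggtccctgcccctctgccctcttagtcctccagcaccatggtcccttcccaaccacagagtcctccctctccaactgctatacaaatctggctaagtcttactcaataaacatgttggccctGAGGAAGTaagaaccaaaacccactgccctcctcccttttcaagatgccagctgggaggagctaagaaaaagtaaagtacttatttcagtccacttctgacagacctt
The ETS core stood once before Ms4a6c, 17 bases from the start, and on both strands before Ms4a6b. Between these 2 genes the longest shared run was 48 bases and contained that motif: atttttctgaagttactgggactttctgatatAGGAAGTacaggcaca. It began 49 bases before the start of Ms4a6c and 118 bases before that of Ms4a6b, and the longest run shared by Ms4a4c and Ms4a4b had 20 bases. Over all 32851 RefSeq windows of 300 bases (250 before the start to 50 after it), the ETS core was present in 9.35%, the PU.1 core in 3.20% and the AP-1 motif in 7.81%. Ly6c2 held 2 PU.1 cores in its window of 300 bases, 1 of them in the stretch printed above. The window of Chil3, another classical monocyte gene, held 1 ETS core, that of Ccl9 1 AP-1 motif, and those of Ccr2, Ms4a4c and F10 held none of the motifs searched. The motifs TTGCGCAA (C/EBP, in 0.183% of all windows), its relaxed form TTGCNNAA (10.8%) and a motif of interferon regulatory factors (3.44%) had no match in any of the 10 matched genes, of 12 looked up. A match describes letters in these windows and not bound protein.

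Levels are given as UMIs of a gene per 1000000 UMIs (CPM) summed over the members of a library, with an exact 95% Poisson interval that covers counting error only. Since mRNA was captured at its poly(A) tail and each molecule counted once, levels were not divided by gene length. The members held 142195 UMIs (vehicle) and 1492788 UMIs (teriparatide) in sum, so that 1 UMI is worth 7.03 and 0.670 CPM. The median member had 10349 UMIs and 2858 genes in the vehicle library, and 13684 UMIs and 3201 genes in the teriparatide library.

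Around the limits of the rule, the highest member held 193 UMIs per 10,000 of S100a8 plus S100a9, and the lowest of the 8 cells shut out by this limit held 498. For Mpo, Elane and Prtn3 together the highest member held 19.5 per 10,000 and the lowest of the 6 cells outside held 25.7. Among the 111 members, 4 held a single UMI of Ccr2, 7 a single UMI of Ms4a6c and 5 a single UMI of Ptprc. Kept Ptprc cells under both limits numbered 23 with Ccr2 but no Ms4a6c, 16 with Ms4a6c but no Ccr2, and 54 with neither. A total of 1 cell without Ptprc met all other terms.

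Among the genes of the rule, Ccr2 (ENSMUSG00000049103, chromosome 9, 124101950 to 124113557) stood at 823 CPM (680.5 to 986) in vehicle members and 612 CPM (573 to 653) in teriparatide members. In single cells it ranged from 2.29 through a median of 8.61 to 15.9 UMIs per 10,000 in the vehicle library, and from 0.636 through 6.29 to 28.5 in the teriparatide library. The ranges overlapped over their whole middle. Ms4a6c (chromosome 19, 11469366 to 11482192) stood at 1132 CPM (964 to 1321) and 1016 CPM (965 to 1068). Its single-cell values ran from 2.87 through 13.2 to 16.9 per 10,000 in vehicle members and from 0.400 through 9.27 to 31.7 in teriparatide members, again with no separation of the libraries.

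The name also rests on 4 marker genes that the rule did not use. They were chosen with earlier results of these data known, so their levels describe the members and are no independent check. Ms4a4c (chromosome 19, 11404770 to 11427246), a further gene of the Ms4a cluster, was at 288 CPM (207 to 391) in vehicle members and 295 CPM (268 to 324) in teriparatide members, with UMIs in 9 of 12 and 68 of 99 cells. F10 (chromosome 8, 13037308 to 13056676), which encodes coagulation factor X, was at 274 CPM (195 to 375) and 217 CPM (194 to 242), in 9 and 77 cells. Ccl9 (chromosome 11, 83572919 to 83578636), a chemokine of myeloid cells, was at 338 CPM (249 to 448) and 506 CPM (470 to 543), in 9 and 86 cells. Csf1r (chromosome 18, 61100598 to 61132149), the receptor of the macrophage growth factor M-CSF, was at 316 CPM (231 to 423) and 186 CPM (165 to 209), in 11 and 77 cells. At least 3 of these 4 genes were seen in 90 of 111 members (81.1%, exact 95% interval 72.5 to 87.9), in 4 of 7 granule progenitors (57.1%, 18.4 to 90.1), in 10 of 281 neutrophil-lineage cells (3.56%), in 6 of 93 other Ptprc cells (6.45%) and in 1 of 1274 cells without Ptprc. Most members carried the markers of the name, the interval of the granule progenitors overlapped theirs, and 11 members held at most 1 of the 4. These shares were not taken at equal depth. The median cell held 13423 UMIs in members, 30696 in granule progenitors and 11746 in neutrophil-lineage cells. It held 6031 in other Ptprc cells and 14668 in cells without Ptprc.

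**Figure D1:**
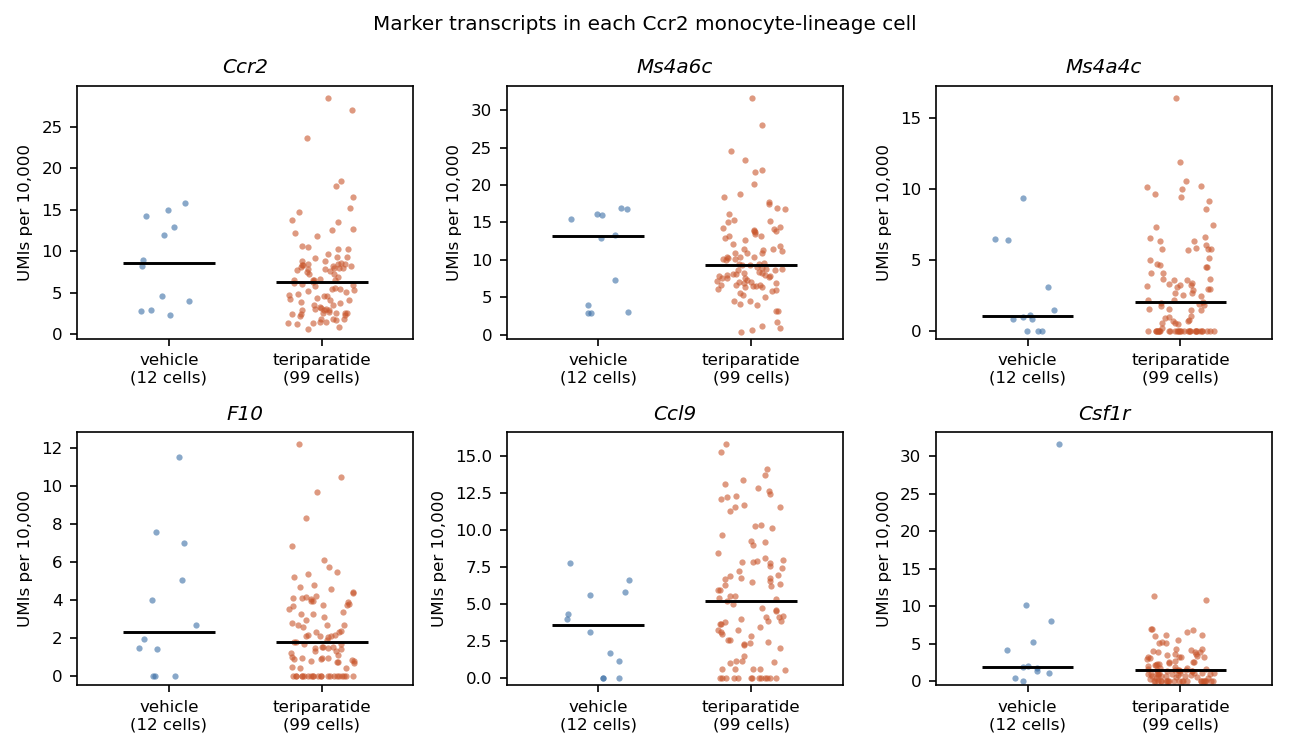
UMIs per 10,000 of the 6 marker genes in each member, with vehicle cells (12) in blue, teriparatide cells (99) in orange and a black line at the median. The vehicle points lie within the range of the teriparatide points for every gene but Csf1r, where 1 vehicle cell reaches 31.6 against a teriparatide maximum of 11.4.

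The other kept cells were sorted into 4 classes by the same genes. Neutrophil-lineage cells, at or above the S100a8 and S100a9 limit with or without a UMI of Ptprc, numbered 30 (vehicle) and 251 (teriparatide), of which 1 and 13 had none. Granule progenitors, at or above the limit on Mpo, Elane and Prtn3, numbered 1 and 6. Other Ptprc cells numbered 21 and 72, and cells under that limit without Ptprc, called cells without Ptprc here, 485 and 789. In the teriparatide library Ccr2 was at 612 CPM in members, 355 in granule progenitors, 71.8 in other Ptprc cells, 22.1 in neutrophil-lineage cells and 0.712 in cells without Ptprc. The 4 markers outside the rule kept this order in part: Ms4a4c was at 295 CPM in members against 16.4, 16.8, 6.31 and 0.453 in those classes, and Csf1r at 186 CPM against 92.9, 82.5, 26.2 and 1.55. With every cell thinned to 3000 UMIs, Ms4a4c was seen in 46 of 106 members (43.4%), none of 7 granule progenitors, 6 of 70 other Ptprc cells (8.57%) and 3 of 259 neutrophil-lineage cells (1.16%). Members and granule progenitors lay closer for the other markers at that depth, with F10 in 41.5% and 28.6%, Ccl9 in 70.8% and 57.1% and Csf1r in 40.6% and 42.9%.

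**Figure D2:**
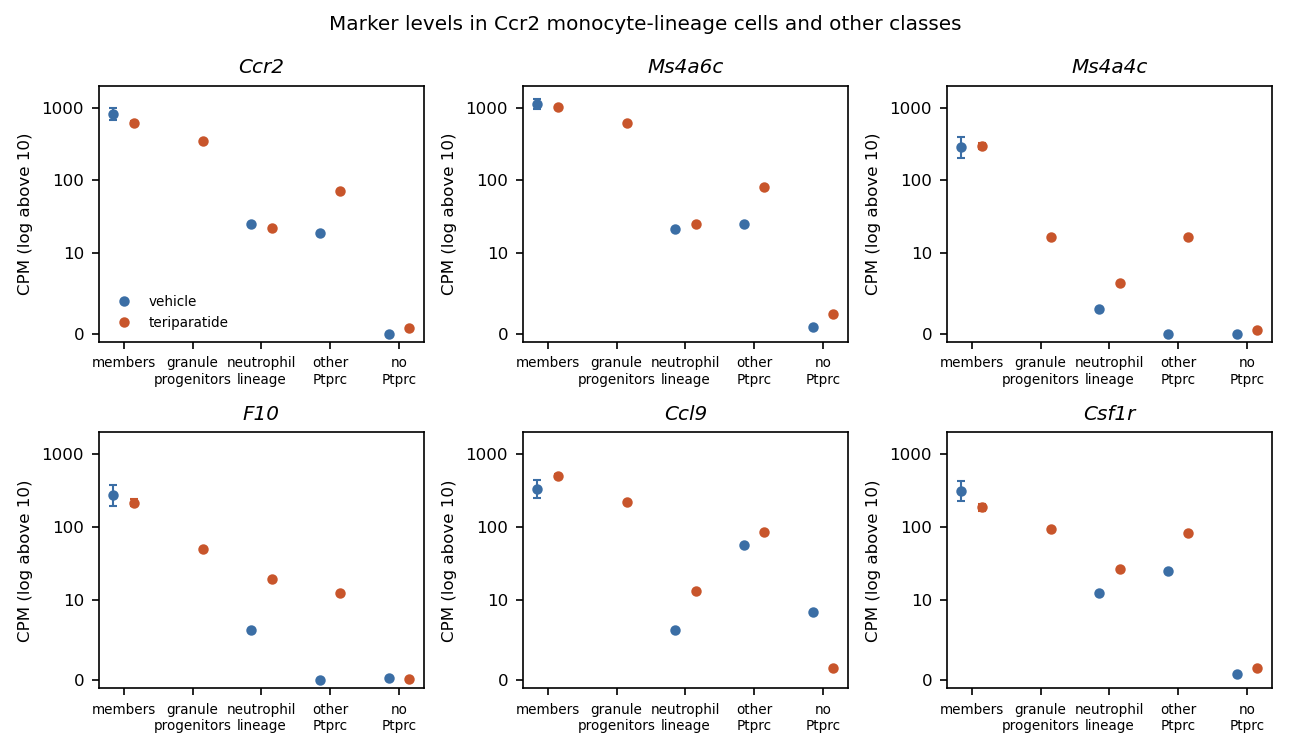
CPM of the 6 marker genes (axis logarithmic above 10 and linear below) in members, granule progenitors, neutrophil-lineage cells, other Ptprc cells and cells without Ptprc, for the vehicle (blue) and teriparatide (orange) library. Bars are exact 95% Poisson intervals of the members, and the single vehicle granule progenitor is not drawn. Members are the highest class for each gene, and in the teriparatide library granule progenitors come next for every gene but Ms4a4c, where other Ptprc cells stand at 16.8 CPM and granule progenitors at 16.4.

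Against the 329 neutrophil-lineage, granule progenitor and other Ptprc cells of the teriparatide library pooled, 24.9% of the 7419 genes with at least 50 UMIs were 2-fold or more higher in members and 7.89% lower. The rule used this contrast, so the genes at its ends are a description. The highest ratios, among genes seen in at least 25% of members, belonged to Ms4a8a (log2 ratio 6.09), Cd300lg (5.72), Dpep2 (5.41), Cysltr1 (5.30), Il6 (5.20), Ms4a4c (5.17), Vcan (5.16), Msr1 (4.91), Stxbp6 (4.86) and Ccdc109b (4.83). Dpep2 encodes a dipeptidase that acts on leukotrienes, Cysltr1 a receptor for cysteinyl leukotrienes, Msr1 a scavenger receptor and Vcan the matrix proteoglycan versican. The 10 lowest were Ltf, Camp, Ngp, Retnlg, Mmp9, Ly6g, Asprv1, Itgb2l, S100a9 and 1700047M11Rik, and most of the named ones among them encode neutrophil granule or surface proteins. Ltf had 3 UMIs and Ly6g 1 UMI in all members.

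The Ms4a cluster was used unevenly. Of its 12 listed genes 9 had a UMI in a member, and 6 were at or above 100 CPM in teriparatide members. After Ms4a6c came Ms4a6b at 345 CPM (255 to 456) in vehicle and 356 CPM (327 to 388) in teriparatide members, in 11 of 12 and 87 of 99 cells. Ms4a4b was at 127 and 154 CPM, Ms4a6d at 127 and 141 CPM, and Ms4a8a at 49.2 CPM (19.8 to 101) and 102 CPM (86.9 to 120). Ms4a8a had no UMI in other Ptprc cells of either library and 1.70 CPM in teriparatide neutrophil-lineage cells. The B cell gene Ms4a1, the mast cell gene Ms4a2 and Ms4a4d had no UMI in any member, which at 3 UMIs allows up to 21.1 CPM in the vehicle and 2.01 CPM in teriparatide members. Ms4a3, a granulocyte-monocyte progenitor gene, had 7 UMIs in members (4.69 CPM) against 216 CPM in teriparatide neutrophil-lineage cells and 191 CPM in granule progenitors. In granule progenitors 5 of the 6 tested Ms4a genes were 2-fold or more lower than in members (in that comparison 17.1% of 4256 genes were 2-fold or more higher in members), and in neutrophil-lineage cells 6 of 7 were (37.7% of 6646 genes were higher in members and 7.72% lower). Both counts treat Ms4a6c like the others, although the rule required it in members. In the teriparatide library, from which both counts come, the neutrophil list held 402792 CPM of neutrophil-lineage cells. That lowers the CPM of all other genes in those cells.

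**Figure D3:**
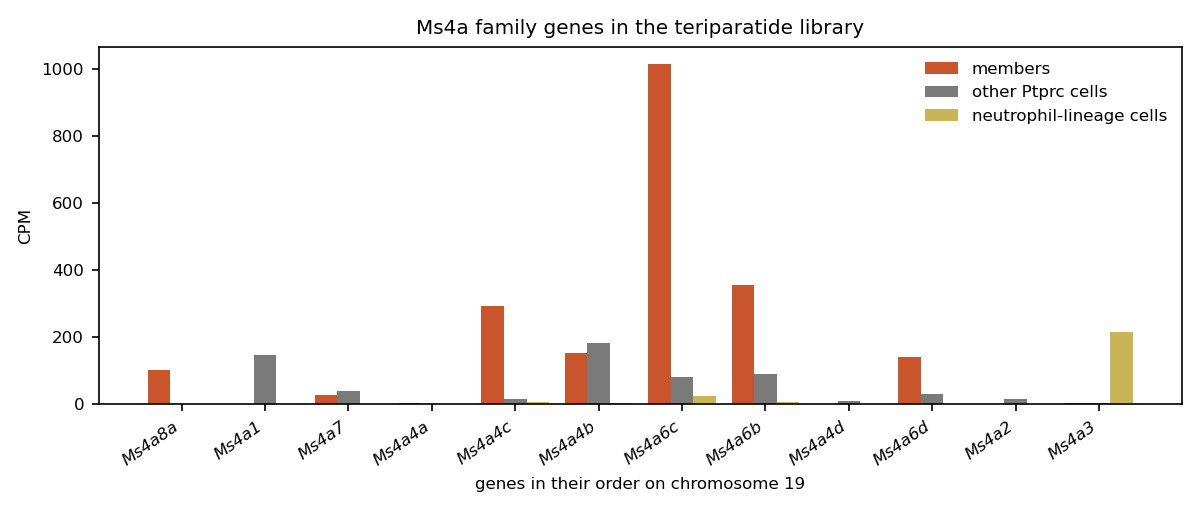
CPM of 12 Ms4a family genes in the teriparatide library, in their order on chromosome 19, for members (orange), other Ptprc cells (grey) and neutrophil-lineage cells (yellow). Members show Ms4a6c at 1016 CPM with Ms4a6b, Ms4a4c, Ms4a4b, Ms4a6d and Ms4a8a between 102 and 356 CPM, while Ms4a3 is seen in neutrophil-lineage cells.

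The 14 genes of the classical monocyte list summed to 38771 CPM in vehicle and 40794 CPM in teriparatide members. Lyz2, the lysozyme gene of myeloid cells, was the most abundant at 20219 CPM (19486 to 20972) and 16502 CPM (16297 to 16709), followed by the chitinase-like gene Chil3 and by Ly6c2, which encodes the surface antigen of classical monocytes. Ly6c2 stood at 2546 CPM (2290 to 2822) and 3351 CPM (3259 to 3445) and was seen in 106 of 111 members. Against other Ptprc cells of the teriparatide library, 13 of the 14 genes were 2-fold or more higher in members, where 13.9% of all 5234 genes were and 8.48% were lower. Other Ptprc cells lacked a UMI of Ccr2 or of Ms4a6c by the rule, so this count is a description. Neutrophil-lineage cells shared some genes of the list, since Chil3 was at 8868 CPM there and 8272 CPM in members, whereas F13a1, the gene of a coagulation factor XIII subunit, was at 29.6 against 1200 CPM. Nonclassical monocyte genes summed to 1730 and 1264 CPM over 12 genes, against 950.3 CPM in other Ptprc cells, 462 CPM in neutrophil-lineage cells and 415 CPM in granule progenitors of the teriparatide library. At least 3 of them were seen in 85 of 111 members, and the highest vehicle cell held 94.3 and the highest teriparatide cell 97.6 per 10,000. Of the summed level 809 and 683 CPM were Nr4a1, a gene that early stimulation also induces.

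Genes of phagocyte function were also abundant. The lysosome and protease list, which contains Lyz2, summed to 35880 and 28640 CPM, with Psap, the precursor of lysosomal activator proteins, at 3481 and 2610 CPM and the protease inhibitor Cst3 at 3840 and 2203 CPM. Both were seen in all 111 members. Of the oxidative burst genes Cybb, the catalytic subunit of the phagocyte oxidase, was at 1786 and 1373 CPM and Cyba, its partner subunit, at 1371 and 1373 CPM. Among the receptors, Fcer1g and Tyrobp, which encode signalling adaptors, were at 1955 and 1873 CPM and at 2307 and 2256 CPM, and the endotoxin co-receptor Cd14 was at 1519 and 815 CPM.

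Osteoclast genes were sparse. Of the 17 listed, Ctsk, Atp6v0d2, Dcstamp, Calcr and Oscar had no UMI in any member, and Tcirg1, a proton pump subunit that other cells use too, was the most abundant at 91.4 and 85.7 CPM. Tnfrsf11a, which encodes the RANK receptor and was named after its values were seen, had 1 UMI in 1 vehicle cell and 22 UMIs in 18 teriparatide cells. Trem2 had 2 UMIs in 1 vehicle cell and 78 UMIs in 30 teriparatide cells, and Nfatc1, the osteoclast transcription factor, 1 UMI in 1 vehicle cell and 60 in 43 teriparatide cells. Pth1r, the receptor of teriparatide, also named after its values were seen, had no UMI in vehicle members and 4 UMIs in 4 teriparatide members (2.68 CPM, 0.730 to 6.86), against 577 CPM in teriparatide cells without Ptprc.

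Members were not uniform. Of the 7573 genes seen in at least 10% of members, the first principal component of the log values held 6.56% of the variance and the second 4.56%. The first set Apoe, Dusp1, Wfdc17, Il1b, Clec4a3, Cd14, Junb, Gadd45b, Nfkbia and Ccl6 at one end against Stmn1, Hmgb2, 2810417H13Rik, Ptma, Tagln2, Hmgn2, Tubb5, Tuba1b, Top2a and Lgals1 at the other. The second end holds genes of dividing cells, such as the microtubule regulator Stmn1 and the topoisomerase Top2a, and the first holds immediate early and inflammatory genes. This component also followed depth, with Pearson's r of -0.69 to the log10 UMI count over 111 cells that share libraries. The second component set Chil3, Lyz2, Fn1, F13a1, Hp, Mgst1, Ly6c2, Msrb1, Ifitm3 and S100a6 against Cd74, H2-Aa, H2-Ab1, Cd83, Tagln2, Xist, Runx3, Dusp2, Ezr and Vps37b, which opposes monocyte genes to genes of class II antigen presentation (r of 0.35 to depth).

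Class II genes marked a small group of cells inside the members. The 9 listed genes summed to between 236 and 507 UMIs per 10,000 in 9 cells, 2 from the vehicle and 7 from the teriparatide library, and to at most 25.8 in the other 102. These 9 cells, counted after their values were seen, held 90.8% of all class II UMIs of members. In 8 of them the classical monocyte list was under 200 per 10,000, where the median of the other 102 cells was 439. H2-Aa, a class II chain, was seen in 13 members. With H2-Aa the CPM of Ly6c2 was 559 (446 to 693) and of F10 53.3 (23.0 to 105), and without it 3556 (3461 to 3653) and 239 (215 to 265). Ccr2, which every member has by the rule, was at 593 CPM (476 to 729) and 634 CPM (594 to 676) in the 2 sets of cells. In 8 of the 9 class II cells the levels of classical monocyte genes thus go against the monocyte name, and the cells are called here by their class II genes. The remaining one, a vehicle cell, held 674 per 10,000 of the classical list. A further 12 members without high class II were also under 200 per 10,000, among them the 3 cells with Siglech, and 4 of the 12 had no UMI of Lyz2.

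Genes of dendritic cells were part of the same picture. Of the conventional dendritic cell list at least 3 genes were seen in 11 members, and Cd209a, a lectin gene of monocyte-derived and conventional dendritic cells, had 54 UMIs in 5 teriparatide members and none in the vehicle. Flt3, a receptor of dendritic cell progenitors, had 2 UMIs in 2 vehicle members and 40 UMIs in 26 teriparatide members. Siglech, a plasmacytoid dendritic cell gene named after its values were seen, had 32 UMIs in 3 teriparatide members and stood at 21.4 CPM there against 180 CPM in other Ptprc cells of that library. Across the 111 members the class II and conventional dendritic cell lists had Pearson's r of 0.68 and Spearman's rho of 0.37.

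Cells in division formed a second group. At least 3 genes of the G2 and M phase list were seen in 36 of 111 members (32.4%, 23.9 to 42.0), against 79 of 281 neutrophil-lineage cells (28.1%, 22.9 to 33.8) 17 of 93 other Ptprc cells (18.3%, 11.02 to 27.6), 219 of 1274 cells without Ptprc (17.2%, 15.2 to 19.4) and 7 of 7 granule progenitors. Median depths were 13423, 11746, 6031, 14668 and 30696 UMIs in this order. With all cells thinned to 3000 UMIs the shares were 26.4%, 22.8%, 17.1%, 10.7% and 28.6%. The G2 and M list reached 10 or more UMIs per 10,000 in 27 members, of which none was among the 9 class II cells. Top2a, the mitotic topoisomerase, was seen in 25 members and Mki67, the proliferation marker gene, in 42.

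**Figure D4:**
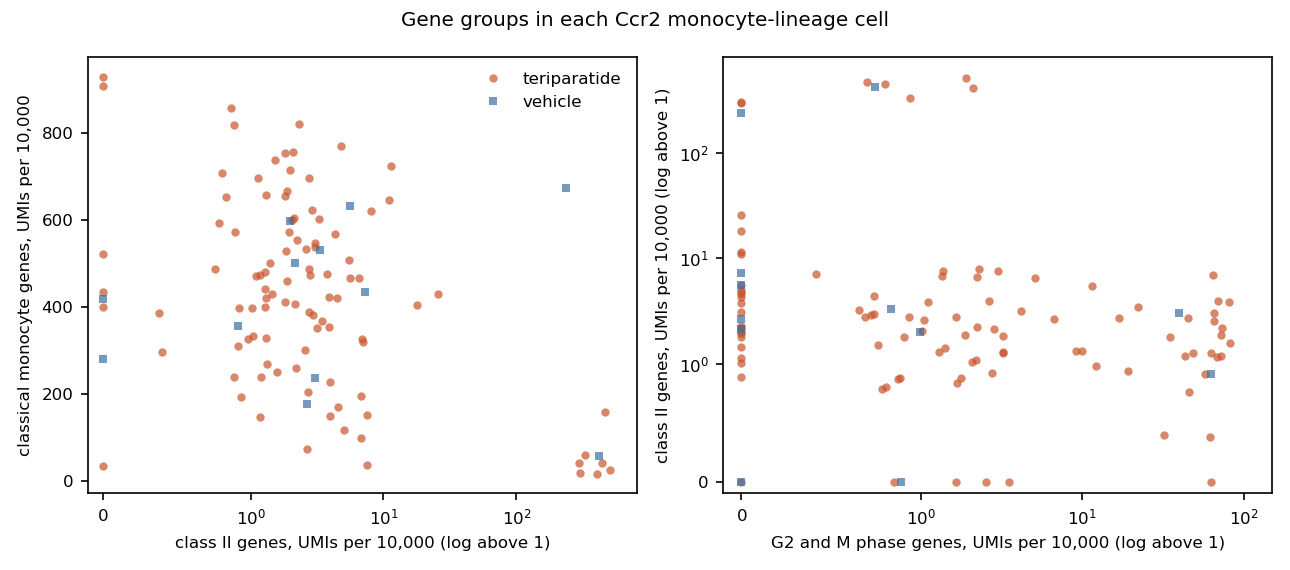
Gene groups in each member, as UMIs per 10,000 (logarithmic above 1 on the axes so labelled), for vehicle cells (blue squares) and teriparatide cells (orange circles). On the left the classical monocyte list is plotted against the class II list, where 9 cells stand apart at 236 or more. On the right the class II list is plotted against the G2 and M phase list. None of these 9 cells is among the 27 members at 10 or more for G2 and M genes, a description given so few cells.

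Markers of other cell types were counted in the same way. At least 3 genes of the B cell, endothelial, mast cell and basophil, megakaryocyte or eosinophil lists were seen in no member, which at 0 of 111 allows a share of up to 3.27%. Of these lists Emcn, Mcpt8, Gp9 and Epx had no UMI at all. At least 3 neutrophil markers were seen in 3 of 12 vehicle members and 82 of 99 teriparatide members (82.8%), and in 31 of 106 members after thinning. Macrophage genes were seen in 2 and 18 members, osteoclast genes in 3 and 49 and nonclassical monocyte genes in 9 and 76. After thinning these lists were seen, in the same order, in 5, 2 and 35 of 106 members. T and NK cell genes were seen in 4 members, and Gzma, a granzyme, had 189 UMIs in 3 teriparatide cells with 83.6% of them in 1 cell. Erythroid genes were seen in 11 members, all of the teriparatide library, and 95.2% of the 1794 UMIs of Hba-a1, an alpha globin gene, lay in 1 cell. Mesenchymal and cartilage genes were seen in 4 of 12 vehicle members (33.3%), in 61 of 99 teriparatide members (61.6%) and in 4 of 106 members after thinning, and their summed level was 176 and 318 CPM in members against 121417 CPM in teriparatide cells without Ptprc. Leaving out the 25 members with at least 3 genes of the erythroid, T and NK or dendritic cell lists, a choice made after seeing the data, moved 1 of 11 main values and 15 of 95 others, and turned none. The part of neutrophil and mesenchymal RNA in the results below was not tested.

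The proportion of S100a8 to S100a9 is given as a description, since the rule used both genes by capping their sum. Vehicle members held 176 UMIs of S100a8 and none of S100a9, and teriparatide members 1452 and 528, so that S100a8 made up 100% (97.9 to 100) and 73.3% (71.3 to 75.3) of the pair. In neutrophil-lineage cells it made up 40.0% (39.7 to 40.4) and 50.4% (50.3 to 50.5), and in cells without Ptprc 37.2% (30.3 to 44.6) and 49.8% (47.6 to 51.9). The proportion in cells without Ptprc lay within counting error of that in neutrophil-lineage cells of the same library. The source of these UMIs in cells without Ptprc was not tested. Few cells set the proportion in members, since 62.5% of the vehicle S100a8 UMIs lay in 1 of 4 positive cells and 27.6% of the teriparatide ones in 1 of 76.

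The members made up 2.19% of kept vehicle cells (1.13 to 3.79) and 8.13% of kept teriparatide cells (6.66 to 9.81), a difference of 5.95 percentage points (Newcombe 95% interval 3.82 to 7.86). Among kept cells with a UMI of Ptprc they made up 19.05% and 23.9%, a difference of 4.81 points (-7.19 to 13.7). Among Ptprc cells outside the neutrophil lineage they made up 35.3% and 55.9%, a difference of 20.6 points (2.30 to 36.2). The share was thus higher in the teriparatide library among all kept cells and among Ptprc cells outside the neutrophil lineage, and among all Ptprc cells the interval held 0. Thinning cells to 3000 UMIs before the rule gave a smaller difference among all kept cells, 3.50 points (1.67 to 5.09). With 1 library per condition, the treatment, the mice, the sort and the library cannot be told apart.

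Each group held several mice of both sexes, with as many males and as many females in one group as in the other, per the methods of the study. The libraries nevertheless differed in the sex of their cells, called from Y-linked transcripts or Xist. Of members with a call, 3 of 10 were male in the vehicle library (30.0%, 6.67 to 65.2) and 62 of 80 in the teriparatide library (77.5%, 66.8 to 86.1), and of cells without Ptprc 52.7% and 85.6% were. In vehicle members the Y-linked genes summed to 21.1 CPM, the level of 3 UMIs, so the 3 male calls rest on that few. With 2 UMIs needed for a call no vehicle member was male, which limits every vehicle value among male members. Within males the members were 3 of 213 (1.41%) and 62 of 722 (8.59%) kept cells, a difference of 7.18 points (3.96 to 9.63). Within females they were 7 of 192 (3.65%) and 18 of 157 (11.5%), a difference of 7.82 points (2.31 to 14.0). The share was higher in the teriparatide library in both sexes.

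Expression in the members was then compared between the libraries, with the 12 vehicle cells as the limit on every value. Log2 ratios are of teriparatide to vehicle CPM with 0.5 UMI added, and intervals are exact conditional 95% intervals that cover counting error only. Of 4213 genes with at least 50 UMIs in members, 271 (6.43%) were 2-fold or more higher and 196 (4.65%) 2-fold or more lower in the teriparatide library, and the median log2 ratio of all was -0.10. Regardless of size, 41.9% of these genes were higher and 58.1% lower, and the counts of each list below stand against these shares. Among the 6 markers none passed 2-fold in either direction. Ccl9 had a log2 ratio of 0.57 (0.16 to 1.04), Ccr2 of -0.43 (-0.71 to -0.14) and Csf1r of -0.78 (-1.22 to -0.28), which was 0.81 among male members. The intervals of Ms4a6c, Ms4a4c and F10 contained 0.

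Of the classical monocyte list 9 of 14 genes were higher (41.9% of all genes were) and 1, Chil3, passed 2-fold. Chil3 was at 2715 CPM (2450 to 2999) in vehicle and 8272 CPM (8127 to 8419) in teriparatide members, a log2 ratio of 1.61 (1.46 to 1.76). In single cells it ranged from 0 through 18.3 to 173 UMIs per 10,000 in the vehicle library and from 0 through 37.4 to 440 in the teriparatide library, and 44.8% of the vehicle UMIs lay in 1 cell. The cells of both libraries overlapped, and the highest values were in teriparatide cells. Among female members alone the log2 ratio of Chil3 was -0.47 and among male members 2.38, from 7 and 3 vehicle cells. Ly6c2 had a log2 ratio of 0.39 (0.24 to 0.55) and Lyz2 of -0.29 (-0.35 to -0.24), which was 0.35 among male members. The median of the list was 0.09, and it was 0.80 among male and -0.43 among female members.

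Calcium-binding S100 and other alarmin genes were higher in 9 of 11 cases (41.9% of all genes were), with a median log2 ratio of 0.68. The list includes S100a8 and S100a9, which the rule capped, so this count and median are a description only. The direction of S100a8 turned under other limits on the sum of the 2 genes. S100a6, seen in 98.2% of members, was at 1596 CPM (1395 to 1818) and 2637 CPM (2556 to 2721). Lgals1, which encodes galectin-1, was at 373 CPM (279 to 488) and 870 CPM (823 to 918), a log2 ratio of 1.21 (0.83 to 1.65). S100a9 had no UMI in vehicle members and 528 in 75 teriparatide members, at least 16.8-fold higher over the level of 3 UMIs in the vehicle members together, with 38.8% of the UMIs in 1 cell. In cells without Ptprc S100a9 was at 16.1 CPM (vehicle) and 67.4 CPM (teriparatide). Of 6 tested neutrophil markers 3 were 2-fold or more higher in members, S100a9, Lcn2 and Wfdc21 (6.43% of all genes were). Another 1, Csf3r, was 2-fold or more lower (4.65% of all). The count includes S100a9, which the rule capped. The neutrophil list summed to 1667 and 1945 CPM, its most abundant gene was S100a8 and Stfa2l1 was at 0. The part of neutrophil RNA in the result was not tested.

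Class II genes were lower in the teriparatide members, 6 of 6 tested, with 2, H2-Ab1 and Cd74, past 2-fold and a median log2 ratio of -0.97 (58.1% of all genes were lower and 4.65% by 2-fold or more). Cd74, the invariant chain, was at 3193 CPM (2906 to 3500) and 1152 CPM (1098 to 1208), with a log2 ratio of -1.47 (-1.62 to -1.32). It rested on few cells, since 65.4% of the vehicle UMIs of Cd74 and 82.9% of those of H2-Ab1 lay in 1 cell each. Among female members alone the direction turned, to 0.59 for Cd74 and 2.19 for H2-Ab1. Cells with H2-Aa were 2 of 12 and 11 of 99 members. The median cell held 2.86 and 2.18 UMIs per 10,000 of the list, in ranges of 0 to 419 and 0 to 507.

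Of 16 tested S phase genes 14 were lower (58.1% of all genes were) and 2, Clspn and Rpa2, were 2-fold or more lower (4.65% of all), with a median of -0.60. The vehicle level of the list came from few cells, since 190 of its 214 UMIs lay in 2 cells, which also held 241 of the 245 G2 and M UMIs. At least 3 S phase genes had a UMI in 4 of 12 vehicle members (33.3%, 9.92% to 65.1%) and 53 of 99 teriparatide members (53.5%, 43.2% to 63.6%), intervals that overlapped, and after thinning in 16.7% and 23.4%. The median member held 2.93 (vehicle) and 2.76 (teriparatide) UMIs of the list per 10,000. Of 21 tested G2 and M phase genes 14 were higher and 6 passed 2-fold (6.43% of all genes did), with a median of 0.31. Those 6 were Ccnb1, Cenpf, Cenpa, Ube2c, Nusap1 and Cdc20, which encode a mitotic cyclin, centromere and spindle proteins and parts of the machinery of mitotic exit. Ube2c was at 77.4 CPM (38.6 to 138) in 3 vehicle cells and 228 CPM (205 to 254) in 45 teriparatide cells, a log2 ratio of 1.50 (0.70 to 2.58). Cdc20 had 1 UMI in the vehicle and 80 UMIs in 21 teriparatide cells. At least 3 G2 and M genes were seen in 2 of 12 vehicle members (16.7%, 2.09 to 48.4) and 34 of 99 teriparatide members (34.3%, 25.1 to 44.6), and after thinning in 16.7% and 27.7%. These intervals overlap and cover counting error only. The median of the G2 and M list was -0.59 among male and 1.01 among female members.

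Chemokine ligands spread widely, with 6 of 9 tested higher (41.9% of all genes were) and 3 past 2-fold higher (6.43% of all). Ccl4, an inflammatory chemokine, was at 105 CPM (59.0 to 174) in 6 vehicle cells and 259 CPM (234 to 286) in 45 teriparatide cells. Cxcl10, an interferon-induced ligand of Cxcr3, was at 35.2 CPM (11.4 to 82.1) in 3 cells and 130 CPM (112 to 150) in 27 cells. Ccl5 had 191 UMIs in 4 teriparatide cells. Cxcl1, a neutrophil attractant, was lower at 120 and 42.9 CPM, in 2 and 10 cells. The abundant ligands were Cxcl2, with a log2 ratio of 0.85 (0.55 to 1.18), and Ccl6, with -0.76 (-1.03 to -0.47). Among male members alone Cxcl1 had 2.40, Cxcl2 -0.08 and Ccl6 0.03. Of the chemokine receptors 5 of 6 were lower (58.1% of all genes were), and Ccrl2 (309 and 123 CPM) and Cx3cr1 (120 and 61.0 CPM) passed 2-fold. Those 5 include Ccr2, which the rule required in members, so the count is a description.

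Inflammatory genes had a median log2 ratio of -0.43, with 13 of 20 lower, a share near the 58.1% of all genes. Il1b, the interleukin-1 beta gene, was at 1660 CPM (1455 to 1886) and 1081 CPM (1028 to 1135) and was seen in 11 of 12 and 69 of 99 cells. Thbs1, Trem1 and Areg were 2-fold or more lower and Ccl4 higher. Thbs1, the thrombospondin-1 gene, was at 1477 and 525 CPM with 52.9% of its vehicle UMIs in 1 cell, and all 32 vehicle UMIs of Areg, an epidermal growth factor family ligand, were in 1 cell. Interferon response genes had a median of -0.36, with 14 of 20 lower (58.1% of all genes were) and 3, Ifitm1, Oasl2 and Cxcl10, past 2-fold higher (6.43% of all). Ifitm3, the most abundant of them, was at 4198 and 3648 CPM.

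Transcription factor genes of monocytes were lower in 13 of 18 cases, where 58.1% of all genes were, with a median of -0.30. Cebpb, a C/EBP factor of myeloid cells, was at 3263 CPM (2973 to 3574) and 2139 CPM (2065 to 2214) and Spi1, which encodes PU.1, at 394 CPM (297 to 511) and 356 CPM (327 to 388). Nfe2 was past 2-fold higher, with 2 UMIs in 1 vehicle cell and 75 UMIs in 43 teriparatide cells. The rule capped 3 genes of the myeloid progenitor list, Mpo, Elane and Prtn3, so its ratios are a description only. Elane, Ctsg and Nkg7, which passed 2-fold, had 0, 1 and 0 UMIs in vehicle members. The list summed to 331 CPM in vehicle and 633 CPM in teriparatide members, its most abundant gene was Prtn3 and Gfi1 was at 0.

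**Figure D5:**
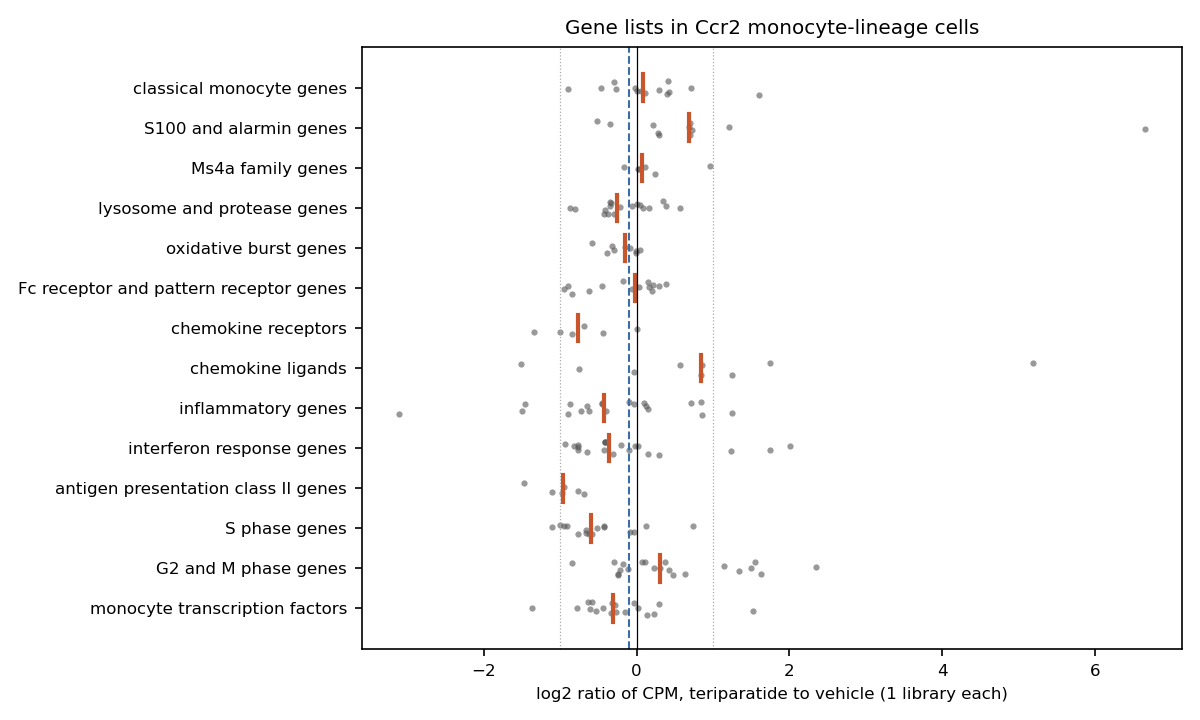
Log2 ratios of CPM, teriparatide to vehicle, for genes with at least 50 UMIs in members, by list (points, 1 gene each, with an orange bar at the list's median). The dashed line marks the median of all 4213 genes at -0.10, and dotted lines mark 2-fold. Class II genes sit at or below -0.69, 14 of 16 S phase genes lie below 0, and G2 and M phase genes reach up to 2.35.

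Over all genes, the 10 highest ratios with an interval above 0 were those of S100a9, Hba-a1, Hbb-bt, Hbb-bs, Ccl5, Gzma, Rgs1, Nkg7, Hba-a2 and Wfdc21. The hemoglobin genes, Gzma and Nkg7 were concentrated in single cells, with 88.4% of the Hbb-bs UMIs and 62.7% of the Nkg7 UMIs of teriparatide members in 1 cell each. For S100a9, Ccl5 and Wfdc21 the top cell held 38.8%, 44.5% and 25.3%, and Rgs1, a regulator of G protein signalling, had 117 UMIs in 13 cells and none in the vehicle. The 10 lowest were Areg, Slc7a11, Ly6i, Themis2, Clip1, AF251705, Guk1, Pglyrp1, Eml4 and Hist1h1e. Slc7a11, the cystine transporter gene, was at 162 CPM (103 to 243) in 6 of 12 vehicle cells and 24.1 CPM (16.9 to 33.4) in 21 of 99 teriparatide cells. Ly6i, a gene of the Ly6 family, was at 127 CPM (75.0 to 200) in 6 cells and 32.2 CPM (23.7 to 42.6) in 21 cells, and Themis2 at 120 and 33.5 CPM in 9 and 34 cells. These 3 genes were spread over 6 or more of the 12 vehicle members.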

How the data were processed

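Unique molecular identifier (UMI) counts per gene and barcode were used as deposited, 1 library per condition. Per the labels, the authors made them with Cell Ranger 2.1.0 on mm10 after 10x 3' library preparation and removed barcodes not called as cells. The matrix header names software version 3.1.0. Python 3.11.15, numpy 2.4.6, scipy 1.17.1, pandas 2.3.3 and matplotlib 3.10.9 were used. UMIs of members were summed per library and divided by the total. Log2 ratios had 0.5 UMI added to each sum, for genes with at least 50 UMIs over both libraries, and 2-fold or more was counted. With 1 library per condition no test between conditions was possible and no p-value is given. Intervals are exact (Poisson, Clopper-Pearson, conditional binomial) or Newcombe's, at 95%, for counting error only. Only the conditional binomial interval was tested on simulated counts. These were drawn from the model it assumes, with no concentration of UMIs in single cells. For detection, cells were thinned to 3000 UMIs and shallower ones left out. A cell was male with a Y-linked UMI and no Xist, female with the reverse. Classes were set by marker genes, no clustering was done and no doublet caller was run. The members and gene lists were chosen with earlier results of these data known. Genes named were those of the rule and markers, the 3 most abundant of each list, list genes past 2-fold, the 10 highest and lowest ratios between libraries and against the neutrophil-lineage, granule progenitor and other Ptprc cells pooled, and the leading 10 genes of the components. The other Ms4a genes, list genes at 0, and genes so described were named after their values were seen. Gene positions are from GENCODE M21 on GRCm38.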

Additional observations from a re-analysis of the deposited data

Results flagged for a closer look

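A total of 2 barcodes of the teriparatide library, and none of the vehicle library, met the other terms of the rule but lay over the limit on mitochondrial UMIs, among 862 and 718 barcodes over that limit.

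Ratios between the libraries ran in opposite directions in male and female members, with both intervals clear of 0, for 8 of the named genes, whose vehicle values came from 3 male and 7 female cells. The 3 vehicle male calls rest on 3 UMIs of Y-linked genes in all. With 2 UMIs needed for a sex call no vehicle member was male, and these male ratios could not be formed. The differences between the sexes were not tested, and further genes turned in 1 sex with an interval that held 0 in at least 1 of them. Chil3 had a log2 ratio of 2.38 in male and -0.47 in female members, Lyz2 of 0.35 and -1.12, and F13a1 of 1.15 and -0.40. S100a8 had 5.27 in male and -2.22 in female members. Of the class II genes, Cd74 had -3.21 in male and 0.59 in female members, H2-Aa -2.59 and 1.80, H2-Ab1 -3.20 and 2.19, and H2-Eb1 -2.44 and 1.36.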

How the results depend on the processing

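Of 1979 values recomputed under another setting, 1753 stayed within the spread allowed, 212 moved and 14 turned direction; the cause was not tested. No paired analysis was possible because each condition has 1 library, and for the same reason no replicate could be left out. Cells thinned to 3000 UMIs before the rule gave a share difference of 3.50 points, a summed marker level of 4000 CPM in vehicle and 3542 CPM in teriparatide members, 41 genes 2-fold or more higher and 19 lower, a members to other Ptprc log2 ratio of the 4 markers of 1.31, a vehicle male share of 0%, G2 and M transcripts in 21.1% of members, class II genes in 7.02%, T and NK genes in 0% and conventional dendritic cell genes in 3.51%. Members thinned after the rule gave 7.55%, 0.943% and 4.72% for the last 3. The summed marker level was 3569 CPM in vehicle members without the deepest cell, and in teriparatide members 2946 CPM with at least 2 UMIs of Ccr2 and Ms4a6c, 3052 and 2723 CPM with the granule gene limit at 5 and 100, 3061 CPM with every cell weighing the same, and 3042 CPM without 25 members that carry markers of other types, an alternative chosen after seeing the data. Genes 2-fold or more higher and lower numbered 651 and 557 with at least 20 UMIs, 104 and 54 with at least 100, and 57 and 37 in female cells, and 336 were lower in male cells. The log2 ratio of the 4 markers to granule progenitors was 2.15 with no upper gene limit, 2.40 with the S100 limit at 1000, and 0.95 and 2.36 with the granule limit at 5 and 100. To neutrophil-lineage cells it was 4.01 and 4.75 with the S100 limit at 100 and 1000, and 3.71 scaled without S100a8, S100a9, hemoglobin and mitochondrial genes. The interval of that ratio at the main setting was 4.03 to 4.41. To other Ptprc cells it was 1.76 with no upper gene limit and 1.86 with every cell weighing the same. Both values, and the 1.31 of thinned cells, lay below the interval at the main setting, 2.35 to 2.88. The vehicle male share was 0% with 2 UMIs needed for a sex call, and G2 and M transcripts were in 23.4% of members with the granule limit at 5. In male cells the log2 ratio turned for Csf1r (0.81), Lyz2 (0.35), S100a8 (5.27), Ccl6 (0.033), Cxcl1 (2.40) and Cxcl2 (-0.078), and in female cells for Chil3 (-0.47), Cd74 (0.59), H2-Aa (1.80), H2-Ab1 (2.19), H2-Eb1 (1.36) and H2-DMa (0.10). S100a8 also turned with the S100 limit at 100 (0.22) and 1000 (1.00). With 12 vehicle members, 1 UMI was worth 7.03 CPM, which limits every ratio of a scarce gene.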
